A study of Mus musculus with 2 samples.

Results

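The neurotrophins Bdnf and Ntf3, the unrelated survival factor Gdnf, the Trk receptors Ntrk2 and Ntrk3, the p75 receptor Ngfr and the sorting receptors Sort1 and Sorcs1 were followed in mouse brain. These 8 genes were chosen by name from 24812 genes with a RefSeq symbol on the array, and every non-control probe that carried one of the names was taken, 17 probes in all. Total RNA came from whole brain at postnatal day 10 and was hybridised to 1-colour Agilent arrays. The GPHR F/F;Nes sample was 1 array and the GPHR F/F littermate control was 1 array, both of strain C57BL/6J and both with the GPHR F/F genotype in common. The labels do not say what Nes stands for, which exons are affected or how many animals gave each RNA. GPHR is the Golgi pH regulator, an anion channel of the Golgi membrane encoded by Gpr89.

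Neurotrophins are secreted proteins that are made as larger precursors and cut in the Golgi and beyond. The mature forms bind Trk receptor kinases and support the survival, growth and synapses of neurons, whereas the precursors bind p75 together with sortilin family receptors. Both TrkB, encoded by Ntrk2, and TrkC, encoded by Ntrk3, are also made as truncated forms that keep the ligand-binding part and lack the kinase. Astrocytes are known to make mainly the truncated TrkB, and neurons make most of the full-length form.

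Because the receptor transcripts split in this way, the probes that separate them are shown first. The accession list of a probe holds at most 4 entries, so a transcript missing from it may still match. The Ntrk2 shared probe lists the truncated transcript NM_008745 and the full-length transcripts NM_001025074 and NM_001282961. Which accession encodes a truncated or a full-length form is background knowledge here, for Ntrk2 and Ntrk3 alike, since the array files name accessions and not forms. The Ntrk2 full-length probe lists NM_001025074 and NM_001282961 but not NM_008745, and lies 251 kb downstream. Of the Ntrk3 probes, 1 lists the full-length NM_008746 but not the truncated NM_182809, 1 lists NM_182809 but not NM_008746, and 2 list both. Each sequence is the probe as the array files give it, 5′ to 3′, with 60 bases in the probe. The first 30 bases alone are given for the Ntrk2 full-length probe and for Bdnf, whose other bases are not printed here. Capitals mark a stop triplet that ends the probe in a reading frame with no earlier stop.
Ntrk2, shared probe: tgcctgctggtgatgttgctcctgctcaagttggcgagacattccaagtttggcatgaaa
Ntrk2, full-length probe: tcaattgatacctatgtgcacgtgtgcaga
Ntrk3, full-length probe: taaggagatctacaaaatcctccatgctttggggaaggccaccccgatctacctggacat
Ntrk3, truncated-form probe: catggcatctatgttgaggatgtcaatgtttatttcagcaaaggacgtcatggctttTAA
Ntrk3, shared probe 1: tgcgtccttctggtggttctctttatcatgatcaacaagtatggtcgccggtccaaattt
Ntrk3, shared probe 2: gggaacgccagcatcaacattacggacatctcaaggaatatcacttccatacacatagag
Bdnf: gtaaatgtctgtggccttgttctctctatg

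On the mm9 build, the Ntrk2 probes lie on the plus strand at chr13:58979563-58979622 for the shared one and chr13:59230936-59230995 for the full-length one. The Ntrk3 probes lie on the minus strand at chr7:85337455-85337514 for the full-length form and chr7:85447515-85447574 for the truncated form. The shared probes of Ntrk3 lie at chr7:85595783-85595842 and chr7:85662370-85722471, the second with a match split over 60102 bp. The Bdnf probe lies on the plus strand at chr2:109566961-109567020. Which exon or untranslated region each probe matches was not analysed here.

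Signals are the scanner's processed intensities in arbitrary units, and each difference is the log2 value in GPHR F/F;Nes less that in GPHR F/F, after each array was set to its own 75th percentile, 173.4 units in GPHR F/F;Nes and 259.5 units in GPHR F/F. Raw signals of a gene with no relative difference are therefore lower in GPHR F/F;Nes. The ± value is the error of the difference that follows from the scanner software's error model, about 0.21 for a single spot, which is technical and leaves out variation between animals. For a mean over several probes it also leaves out the spread between them. Each genotype had 1 array, so the differences have no check by replicates and the genotypes could not be tested against each other. In whole brain, fewer cells of a type and less RNA per cell cannot be told apart.

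The arrays also differed in ways that bear on every result. Xist passed the scanner's background test only on the GPHR F/F;Nes array, where it was at least 55.8-fold brighter, whereas the Y-linked Eif2s3y, Ddx3y and Uty did so only on the GPHR F/F array, so sex and genotype cannot be told apart. The single Gpr89 probe gave 20.04 units in GPHR F/F;Nes and 43.3 units in GPHR F/F, a difference of -0.53 ± 0.22, and whether it lies in a deleted part is not given. Of the 17296 genes with a symbol measured on both arrays, 46.7% lay below 0, 53.3% above 0 and 6.83% were at least 2-fold higher. In the marker lists, all 7 neuronal genes lay below 0 (median -0.15) and 5 of 7 astrocyte genes above 0 (median 0.29). All 3 measured choroid plexus genes were at least 2-fold higher (median 1.43). All 3 measured mural cell genes (median 1.02) and 3 of 5 meningeal fibroblast genes (median 1.44) were at least 2-fold higher too. All 5 oligodendrocyte genes (median 0.46) and all 3 measured microglial genes (median 0.41) lay above 0, all 4 oligodendrocyte precursor genes below 0 (median -0.48). The 3 measured endothelial genes went both ways, with Flt1 at 1.35, Pecam1 at -0.07 and Slco1c1 at -0.31. The part of these shifts in the results below was not tested.

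Among the 7 genes measured on both arrays, Bdnf differed most. The RNAs of Ntf3, Ntrk3 and Ngfr also had lower normalized signal, with log2 differences of -0.64, a mean of -0.60 over probes, and -0.55, while the gene means of Sort1 (-0.16) and Sorcs1 (0.16) lay nearer 0. The Ntrk2 probes went opposite ways, except with scaling to spike-in RNAs, where both lay below 0. Of the 17 probes, 14 were well above background on both arrays, covering 7 genes, 2 on 1 array only and 1 on neither. Of the 14, 1 was at least 2-fold lower, against 1.45% of all 36717 probes measured on both arrays. None was at least 2-fold higher, against 7.11% of all probes. Below 0 lay 10 of the 14, or 71.4%, against 46.1% of all probes, and above 0 lay 4, against 53.9% of all probes. Their median was -0.42, against 0.04 over all probes, in a range from -1.22 to 0.73. Differences on these arrays also depended on signal level, so each member was set beside the probes within 0.25 log2 units of its mean level. The medians of those probes ran from -0.14 to 0.19, and 11 of the 14 members lay below their own.

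**Figure D1:**
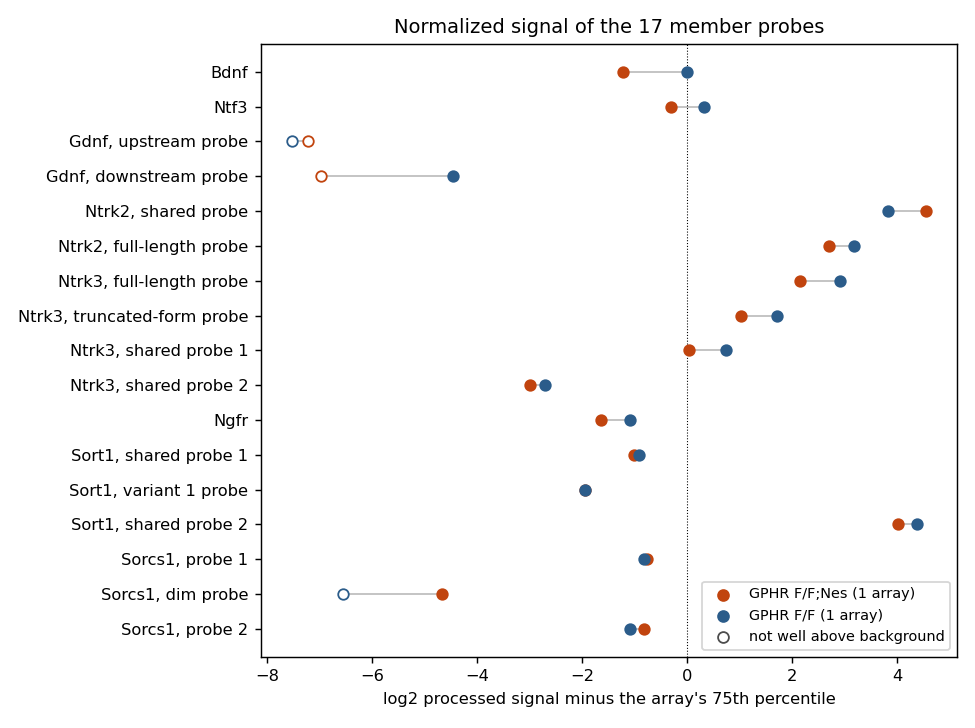
Normalized signal (log2, relative to the 75th percentile of the array) of each of the 17 probes, 1 point per array, with open circles where the probe was not well above background. Bdnf stands at -1.23 in GPHR F/F;Nes and -0.01 in GPHR F/F, and the Ntrk2 shared probe at 4.54 in GPHR F/F;Nes and 3.81 in GPHR F/F.

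Bdnf, the brain-derived ligand of TrkB whose transcription follows neuronal activity, gave 73.9 units in GPHR F/F;Nes and 258 units in GPHR F/F. The normalized signal in GPHR F/F;Nes was 42.9% of that in GPHR F/F, a difference of -1.22 ± 0.21 or 2.33-fold lower. The 2163 probes of like signal had a median difference of 0.01. After normexp background correction with quantile normalization the difference was -0.89, short of 2-fold. The probe lists 4 Bdnf transcripts and so does not separate the promoters from which Bdnf is transcribed.

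The Ntf3 probe lies on the minus strand at chr6:126051431-126051490. Ntf3, the ligand of TrkC, gave 139 units in GPHR F/F;Nes and 324 units in GPHR F/F. Its difference was -0.64 ± 0.20, a 1.56-fold lower normalized signal, under the 2-fold threshold. Gdnf, which signals through Ret and a GFRα co-receptor and not through Trk receptors, was close to background. Its downstream probe, at chr15:7787474-7787533, gave 1.37 units in GPHR F/F;Nes, not well above background, and 11.7 units in GPHR F/F, so GPHR F/F was at least 1.55-fold brighter. Its upstream probe, at chr15:7784398-7784457, was not well above background on either array, at 1.17 units in GPHR F/F;Nes and 1.42 units in GPHR F/F. The Gdnf level in whole brain was thus not resolved by these arrays.

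The Ntrk2 probes differed unequally between the genotypes. The shared probe, which lists both truncated and full-length transcripts, gave 4030.4 units in GPHR F/F;Nes and 3641 units in GPHR F/F. Its difference was 0.73 ± 0.20, a 1.66-fold higher normalized signal, and its unscaled signal was also the brighter one in GPHR F/F;Nes. The full-length probe gave 1122 units in GPHR F/F;Nes and 2334 units in GPHR F/F, a difference of -0.47 ± 0.20 or 1.39-fold lower. The probes thus differed from each other by 1.20 ± 0.29 on the log2 scale. Array-wide scaling, the filters, kept outliers and the deposited table leave this comparison as it is. Of the 9 alternative settings, only quantile normalization, loess and normexp could move it, and it stayed between 1.15 and 1.20. The direction of the shared probe alone did depend on scaling, at -0.30 when arrays were scaled to spike-in RNAs and 0.45 to 0.81 in the other settings.

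The astrocyte list, whose cells are known for truncated TrkB, had a summed normalized signal of 22.3 in GPHR F/F;Nes and 17.6 in GPHR F/F, in units of the 75th percentile. Its members ran from -0.83 for S100b to 0.82 for Gfap, the astrocyte filament protein, and all 7 were well above background on both arrays. The neuronal list summed to 65.6 in GPHR F/F;Nes and 82.7 in GPHR F/F, and its members ran from -1.14 for the neurofilament gene Nefl to -0.05 for Stmn2. The part of either cell type in the Ntrk2 result was not tested.

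Ntrk3, the receptor for Ntf3, had lower signal at each of its 4 probes in GPHR F/F;Nes. The full-length probe gave 766 units in GPHR F/F;Nes and 1954 units in GPHR F/F, a difference of -0.77 ± 0.20. The truncated-form probe gave 354 units in GPHR F/F;Nes and 844 units in GPHR F/F, a difference of -0.67 ± 0.20. The differences of the full-length and truncated-form probes were thus -0.10 ± 0.29 apart. The Ntrk2 value of 1.20 ± 0.29 is not a like contrast, since it is a shared probe less the full-length one. For Ntrk3, the full-length probe less a shared probe gave -0.08 ± 0.29 for shared probe 1 and -0.49 ± 0.30 for shared probe 2. Shared probe 1 gave 178 units in GPHR F/F;Nes and 429.6 units in GPHR F/F, a difference of -0.69 ± 0.20. Shared probe 2 gave 21.7 units in GPHR F/F;Nes and 39.5 units in GPHR F/F, and differed by -0.28 ± 0.22. That difference is smaller than the others by 0.39 to 0.49. All probes of its signal level had a median difference of 0.19, and after quantile normalization its own was -0.54. The mean over the 4 probes was -0.60 with an SD of 0.22 between probes.

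**Figure D2:**
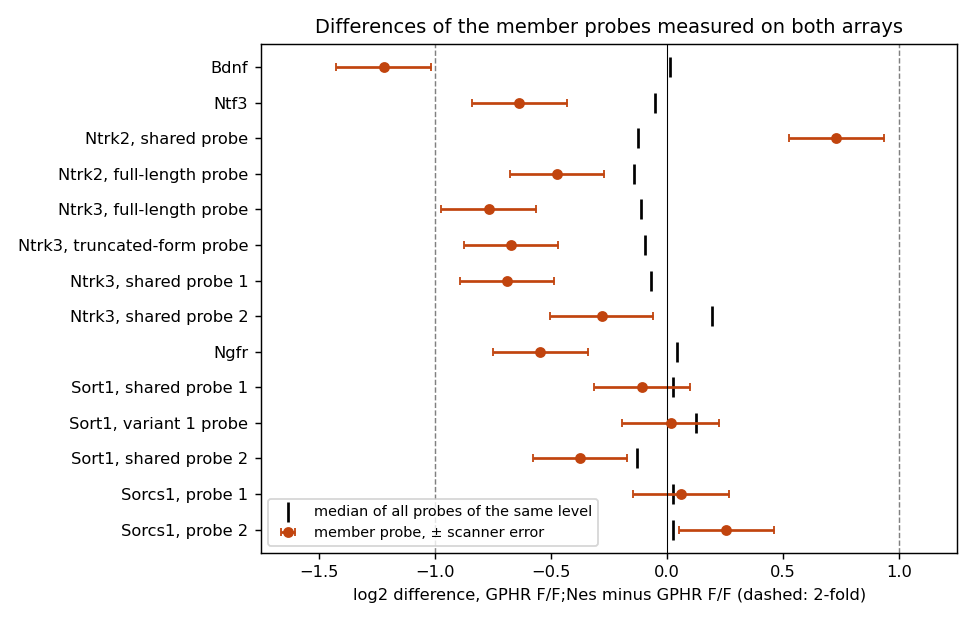
Log2 difference (GPHR F/F;Nes less GPHR F/F) of the 14 probes measured on both arrays, with the scanner error as bars and the median of all probes within 0.25 log2 units of the same level as a black tick. Bdnf lies at -1.22, beyond the dashed 2-fold line, the 4 Ntrk3 probes lie between -0.77 and -0.28, and the Ntrk2 probes lie at 0.73 (shared; -0.30 under spike-in scaling) and -0.47 (full-length).

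Ngfr encodes p75, a death-domain receptor for all neurotrophins that in the brain marks basal forebrain cholinergic neurons. Its probe, on the minus strand at chr11:95430211-95430270, gave 55.8 units in GPHR F/F;Nes and 122 units in GPHR F/F, a difference of -0.55 ± 0.21 or 1.46-fold lower. Of the cholinergic markers, the vesicular acetylcholine transporter Slc18a3 differed by -2.40 ± 0.27. Its 1 probe was dim in GPHR F/F;Nes, at 9.45 units, and gave 74.8 units in GPHR F/F. The synthesis enzyme Chat differed by 0.89 ± 0.15, with 33.7 units in GPHR F/F;Nes and 27.2 units in GPHR F/F over 3 of its 6 probes. The measured Chat probes ran from 0.49 to 1.13. The choline transporter Slc5a7 cleared background on the GPHR F/F array only and was at least 1.91-fold brighter there. This list summed to 0.25 in GPHR F/F;Nes and 0.39 in GPHR F/F over its 2 genes measured on both arrays, and its members went both ways. Of the Schwann cell list, whose cells also carry p75, 2 of 3 measured genes lay above 0 (summed signal 3.11 in GPHR F/F;Nes and 2.42 in GPHR F/F). The part of these cells in the Ngfr value was not tested.

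Sort1, the sortilin that binds neurotrophin precursors and carries Bdnf into the regulated secretory pathway, differed little. A shared probe, at chr3:108164279-108164338 on the plus strand and shared by NM_001271599 and NM_019972, gave 2776 units in GPHR F/F;Nes and 5388 units in GPHR F/F, a difference of -0.37 ± 0.20. The other shared probe, at chr3:108151563-108151622, gave 85.3 units in GPHR F/F;Nes and 138 units in GPHR F/F, a difference of -0.11 ± 0.21. The probe that lists NM_001271599 and not NM_019972, at chr3:108158404-108158463, gave 45.2 units in GPHR F/F;Nes and 67.0 units in GPHR F/F, a difference of 0.01 ± 0.21. The lowest and highest of the 3 values were 0.39 apart, against a scanner error of 0.29 for a contrast of 2 probes.

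Sorcs1, a sortilin relative that sorts neuronal receptors, had 2 probes measured on both arrays. Probe 1, which lists NM_021377 and lies at chr19:50225530-50225589 on the minus strand, gave 102 units in GPHR F/F;Nes and 147 units in GPHR F/F, a difference of 0.06 ± 0.21. Probe 2, which lists NM_001290356 and NM_001252501 and lies at chr19:50227545-50227604, gave 97.7 units in GPHR F/F;Nes and 122 units in GPHR F/F, a difference of 0.26 ± 0.21. The probe at chr19:50227322-50227381 was dim, with 6.78 units in GPHR F/F;Nes and 2.78 units in GPHR F/F, where it was not well above background, so GPHR F/F;Nes was at least 1.61-fold brighter. Probes 1 and 2 took both signs across settings, at -0.22 and -0.02 with each array centred on its median.

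**Figure D3:**
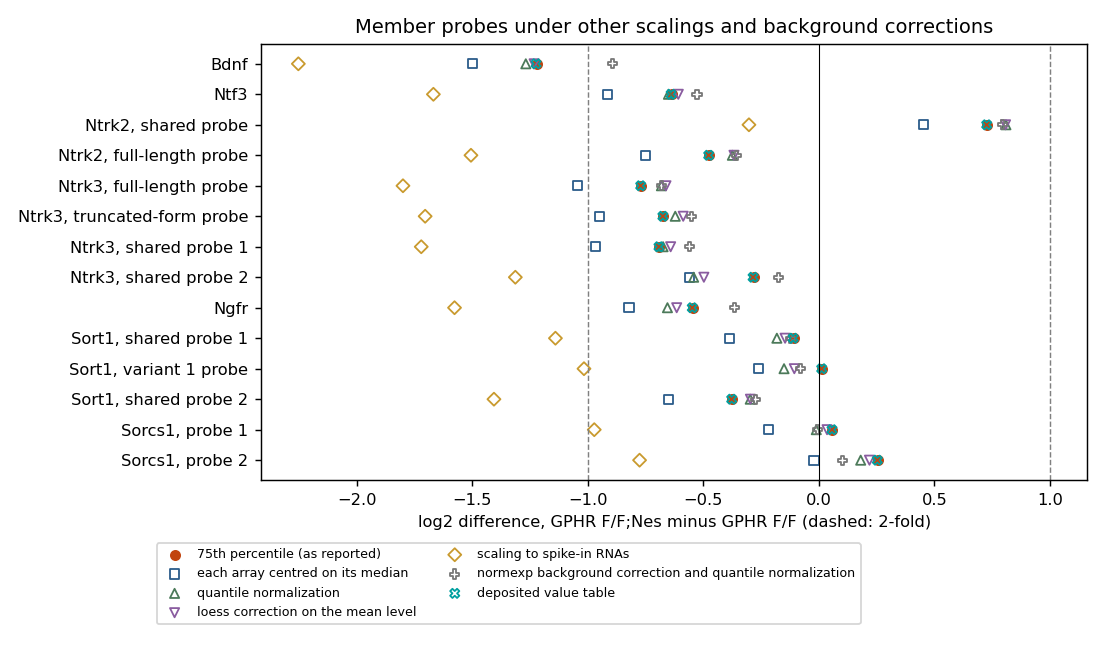
Log2 difference (GPHR F/F;Nes less GPHR F/F) of the same 14 probes under 7 scalings or background corrections. Scaling to spike-in RNAs moves every probe down by 1.03, and Bdnf stays between -2.25 and -0.89. The distance between the Ntrk2 probes, which array-wide scaling cannot change, hardly moves.

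The rest of the pathway was followed in 8 gene lists with 117 genes, of which 108 were measured on both arrays. Of those, 8 were at least 2-fold lower and 4 at least 2-fold higher, against 1.67% and 6.83% of the 17296 genes with a symbol. Below 0 lay 68 of the 108, against 46.7% of all such genes, of which 53.3% lay above 0. The median over the 108 genes was -0.15, against 0.03 over all such genes. The shares over all such genes are the comparison for each list below as well. The lists were chosen with earlier results of these data known, are described by counts alone and were not tested.

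Of the ligands outside the 8 genes, Ntf5 was not well above background on either array. All 6 measured genes among the other neurotrophin receptors and co-receptors lay below 0, with a median of -0.60. Sorcs3, a neuronal relative of Sorcs1, was the member past 2-fold, with 56.4 units in GPHR F/F;Nes and 187 units in GPHR F/F, a difference of -1.14 ± 0.21, and after normexp no gene of the list was 2-fold lower.

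The GDNF family list had 4 of 9 measured genes above 0 and 5 below, with a median of -0.15 that turned to 0.27 without a filter on dim probes. Gdf15, a stress-induced hormone, was 3.93-fold higher at 244 units in GPHR F/F;Nes and 92.9 units in GPHR F/F, a difference of 1.97 ± 0.21. Artn, the ligand artemin, gave 15.8 units in GPHR F/F;Nes and 47.4 units in GPHR F/F, which put it at the 2-fold threshold. No gene of this list was 2-fold lower after normexp or with the stricter filter, and none 2-fold higher with spike-in scaling. The list of precursor cleavage had a median of 0.23 over 8 measured genes, 5 of them above 0, but that median lay below 0 with median centring (-0.05), after quantile normalization (-0.04), after normexp (-0.07) and with spike-in scaling (-0.80). The convertase Furin, named after its value was seen, differed by 0.28 ± 0.14, with its 2 probes at 0.07 and 0.50.

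Signalling genes below the receptors differed little as lists as reported, but not with spike-in scaling, which moved every probe down by 1.03. Of 11 measured genes for p75 cleavage and adaptors, 6 lay above 0 and the median was 0.04, with Nradd, a p75 relative, at 1.02 ± 0.23. The sign of that median held in 4 of 10 alternative settings, and no gene of the list was 2-fold higher with median centring, quantile, loess, normexp or spike-in scaling or with the stricter filter. Of 37 Trk adaptors and kinases, 17 lay above 0 and 20 below, with a median of -0.04. There Shc1, an adaptor that links receptors to Ras, was the single gene past 2-fold, at 1.14 ± 0.15 over its 2 probes. No gene of this list was 2-fold higher with median centring, quantile, normexp or spike-in scaling, and 2 were with the stricter filter or with the brightest probe of each gene. With spike-in scaling 23 of the 37 were 2-fold lower, as were 5 of the 11 p75 genes, against 48.9% of all probes. None of the 12 transcriptional regulators of Bdnf passed 2-fold as reported, whereas 1 was 2-fold lower with median centring and 9 with spike-in scaling. The median of the 12 as reported was -0.24. Mef2c (-0.83 ± 0.11) and Hdac2 (-0.43 ± 0.21) lay lowest and the neuronal gene repressor Rest (0.62 ± 0.12) and Usf1 (0.23 ± 0.15) highest.

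Genes induced by BDNF or by neuronal activity were mostly lower in GPHR F/F;Nes. Of 24 measured genes, 20 lay below 0, 6 were at least 2-fold lower and none 2-fold higher, with a median of -0.54. Over all measured genes with a symbol, 46.7% lay below 0, 1.67% were at least 2-fold lower and 6.83% at least 2-fold higher. Vgf, a secreted neuropeptide precursor, gave 155 units in GPHR F/F;Nes and 1114 units in GPHR F/F, a difference of -2.26 ± 0.15. Its 2 probes lay at -2.53 and -1.99. The transcription factors Egr3 (-1.47 ± 0.14) and Egr4 (-1.25 ± 0.20), the MAP kinase phosphatase Dusp4 (-1.47 ± 0.15), the signalling inhibitor Spry4 (-1.19 ± 0.24) and the neuropeptide gene Cort (-1.24 ± 0.20) were also past 2-fold. The list did not move as one, since Fos (0.54 ± 0.20) and Nr4a2 (0.56 ± 0.14), named after their values were seen, lay above 0. The neuronal markers lay below 0 on the same arrays, with a median of -0.15, and their part in these values was not tested.

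**Figure D4:**
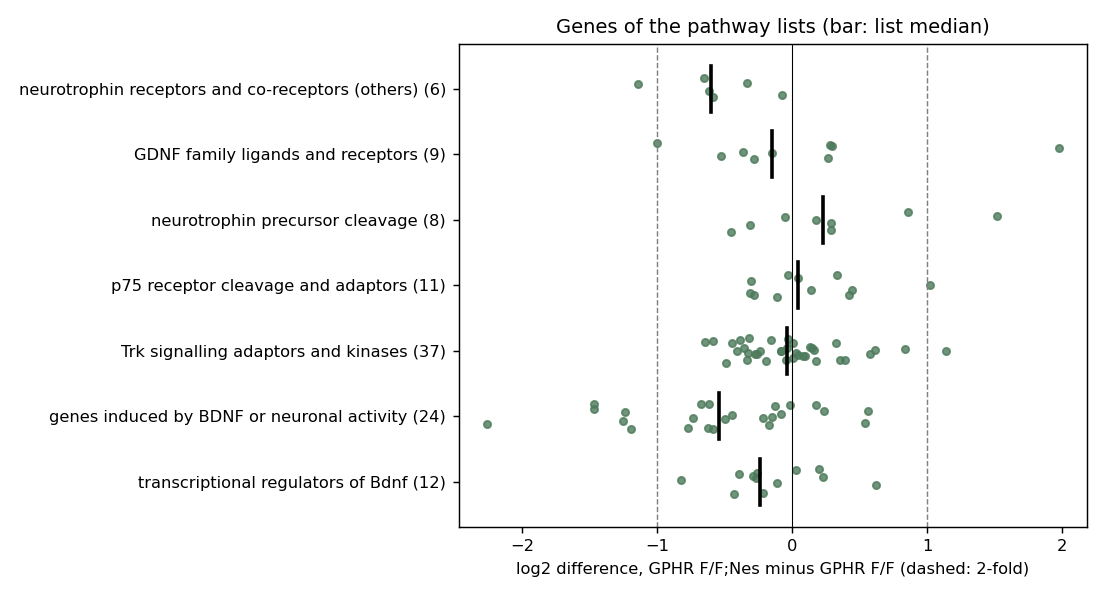
Log2 difference (GPHR F/F;Nes less GPHR F/F) of the measured genes of the 7 pathway lists with more than 1 measured gene, 1 point per gene, with the list median as a bar and the number of genes in brackets. The genes induced by BDNF or neuronal activity (median -0.54) and the other receptors and co-receptors (median -0.60) lie mostly left of 0, and the Trk adaptors and kinases are spread around it (median -0.04).

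The balance of all 2-fold probes depended on scaling, so counts in 1 direction carry that limit. Of the probes past 2-fold, 83.1% were higher in GPHR F/F;Nes as reported, 51.3% with each array centred on its median, 63.7% after quantile normalization, 68.3% after loess correction and 0.96% after scaling to spike-in RNAs.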

How the data were processed

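Brain RNA, 1 sample per genotype, was read on 1 slide in 1 scan. Per the submitters' processing notes the scans were read with Agilent Feature Extraction 11.5.1.1, and per the file headers the deposited intensity of each spot was background-subtracted and spatially detrended on a linear scale. The deposited series table is on the log2 scale and equals the log2 processed intensity plus 1 constant per array within 0.001 for 99.9% of probes on each array. The constants were -7.43 for GPHR F/F;Nes and -8.01 for GPHR F/F, and the sources used here do not say how the authors chose them. The log2 75th percentiles found here were close in size, 7.44 in GPHR F/F;Nes and 8.02 in GPHR F/F. As an alternative setting, the deposited table is therefore scaled almost as the main result. Its column medians were -2.92 for GPHR F/F;Nes and -3.19 for GPHR F/F.

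Here, control spots and spots flagged as outliers were left out, spots of a probe were averaged as log2 values, and each array's 75th percentile over 56603 probes was subtracted. Probes well above background on both arrays (36717) were taken as measured. For a probe measured on 1 array, the fold is a bound, taken against the dim signal or the array's detection floor, whichever was higher (the floor was 5.06 units in GPHR F/F;Nes and 6.28 units in GPHR F/F). The scanner error rests on an assumed 10% multiplicative error, whereas replicate spots of 298 probes had an SD of the difference of 0.06. Symbols came from array names and a RefSeq table of GRCm38.p6, and a list gene's value is the mean over its measured probes. All 17 member probes and, in each list, genes past 2-fold or else the 2 largest differences in each direction were named by rule, except for a few list genes that are not reported here. Members and lists were chosen with earlier results of these data known. With 2 arrays no likeness of pattern across samples was computed. In 56603 simulated probes of this comparison of 2 arrays, all 66 changed 2.5-fold and all 63 changed 4-fold passed the 2-fold threshold. Of 71 changed 1.5-fold, 0 passed. The largest error was 0.26 on the log2 scale, so these outcomes were fixed by the fold sizes set. They check the calculation and say nothing of variation between animals. Alternatives were 4 other scalings, normexp (offset 50), the deposited table, 2 other filters, outliers kept, the brightest probe of each list gene and other thresholds, run in Python 3.11.15, R 4.3.3 and limma 3.58.1.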

Additional observations from a re-analysis of the deposited data

How the results depend on the processing

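The count of member probes at least 2-fold lower in GPHR F/F;Nes was 1 as reported and 2 with each array centred on its median (Bdnf and the Ntrk3 full-length probe). It was 11 with scaling to spike-in RNAs, 0 after normexp correction, 2 without a filter on dim probes, 5 at a 1.5-fold threshold and 0 at a 3-fold threshold. The count at least 2-fold higher was 0 as reported, 1 without a filter and 1 at 1.5-fold. Of the 14 measured probes, 10 lay below 0 as reported, 13 with median centring, 12 after quantile normalization, 11 after loess, 14 with spike-in scaling and 12 after normexp. Of all probes, 46.1% lay below 0 as reported, 68.3% with median centring and 55.0% after quantile normalization. That share was 51.6% after loess, 93.4% with spike-in scaling and 54.8% after normexp. The shares of all probes at least 2-fold apart were 7.11% higher and 1.45% lower as reported, 3.95% and 3.75% with median centring, 4.58% and 2.61% after quantile normalization, 4.94% and 2.29% after loess, 0.474% and 48.9% with spike-in scaling, 1.38% and 0.381% after normexp, 14.2% and 2.49% without a filter, 4.17% and 1.24% with the stricter filter, 16.9% and 6.48% at 1.5-fold and 1.93% and 0.251% at 3-fold. Median centring moved the median of all probes by -0.28, spike-in scaling by -1.03 and dropping the filter by 0.19. The 8 spike-in probes gave differences between the arrays of 0.15 to 1.30 (mean 0.45, SD 0.35 between probes), a spread that limits this scaling. Of the 24 genes induced by BDNF or activity, 4 were 2-fold lower after normexp and 20 with spike-in scaling. Bdnf was below 0 in all 9 settings that rescaled or refiltered values. So were Ntf3, the Ntrk2 full-length probe, the 4 Ntrk3 probes, Ngfr and the shared Sort1 probes. The filters leave the value of a member unchanged, and the deposited table and kept outliers hardly move it. Those settings could not have changed the sign of these probes. Median centring and spike-in scaling moved every probe down, so only quantile normalization, loess and normexp could have changed it. The cause of these shifts was not tested. No paired analysis was possible because each genotype had 1 array, and none could be left out. Signal over background limits Gdnf, Ntf5 and the dim Sorcs1 probe.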
